A study of Rattus norvegicus with 12 samples.

Results

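Ribosomal protein genes were followed in polyA RNA sequencing of rat periaqueductal grey, the midbrain grey matter around the aqueduct. The genes were chosen by their symbol in the deposited series table. It had to be Rpl or Rps and a number, followed by nothing but digits or the letters a, x, l or y. Rplp0, Rplp1 and Rplp2 were added. A mean of at least 0.5 TPM was required (transcript abundance scaled to the total of the library and divided by transcript length). Of 89 genes with such a name, 87 passed this minimum (Rpl3l and Rpl30l1 did not), among 24540 genes tested. They carry 81 symbols, since Rpl21, Rpl7a, Rps27a and Rps4x each had several loci, and 52 belong to the large and 35 to the small ribosomal subunit.

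The 12 libraries came from male Sprague Dawley rats, and the labels list no treatment of these animals themselves. They are labelled "Saline-sired" (6 libraries) and "Moprhine-sired" (6), for the treatment of the father, and the comparison asks whether gene levels in the offspring differ with it. No dose, age, genotype, father or litter is listed, and each animal was taken as independent in every test. The libraries are bulk tissue, in which fewer cells of a type and less RNA per cell cannot be told apart. Replicate numbers are only names.

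Some libraries stood apart in other cell types. In saline-sired 1, saline-sired 6 and morphine-sired 1 the summed markers of cholinergic neurons (Chat, Slc5a7, Slc18a3 and Isl1) stood at 3.19 to 5.77 TPM, against 53.4 to 138 elsewhere. Choroid plexus markers, summed over 6 genes, stood at 1801 TPM in morphine-sired 2, 446 in saline-sired 2 and 11.5 to 77.2 in the others. Results of ribosomal protein genes that rest on the first 3 are given with and without them. The defining markers of neurons, astrocytes, oligodendrocytes and microglia were present in every library.

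The cytoplasmic ribosome joins a large subunit, which forms peptide bonds, to a small subunit, which reads the messenger RNA. Each ribosomal protein is needed in roughly equal copy number, and their mRNAs are among the most abundant in any cell, neurons and glia included. Most of these mRNAs begin with a C followed by a run of pyrimidines, the 5′ terminal oligopyrimidine (TOP) motif, through which mTORC1 signalling and LARP1 control their translation together.

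The annotated start sites of 8 members are shown, chosen as examples with the sequences in view. Sequences are from RefSeq on the GRCr8 build, each with 10 bases before the annotated start and 20 from it on, and capitals mark the unbroken run of C and T from the start.
Rplp1: cgcatgtgatCCTTTCCTCagctgccgcca
Rpl31: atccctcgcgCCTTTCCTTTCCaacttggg
Rpl19: ccagcaagctCTTTCCTTTCgctgctgcgt
Rpl10: gtgggagcgtCTCTTTTCCTCTggcgcggt
Rpl27a: cttggtgggcTCCTCCCTCTTTCTTTTCTg
Rpl34: tccttttcctCTTCCggggacggtgcttag
Rpl12: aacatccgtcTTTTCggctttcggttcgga
Rpl41: ctcggaagtgacgacaccaagcacgccatt
They lie at chr8:71290853-71290882 (minus strand, Rplp1), chr9:49143101-49143130 (plus, Rpl31), chr10:83519054-83519083 (plus, Rpl19) and chrX:157205840-157205869 (plus, Rpl10). The others are at chr1:172974563-172974592 (plus, Rpl27a), chr2:221962264-221962293 (minus, Rpl34), chr3:36661930-36661959 (plus, Rpl12) and chr7:1563478-1563507 (minus, Rpl41). Rpl10 and Rpl31 carry runs of 12 bases and Rpl34 1 of 5. The runs of Rpl27a and Rpl12 start with a T and not with the C of the TOP motif. The annotated start of Rpl41 is not a pyrimidine.

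RefSeq promoter entries matched 60 of the 81 symbols (61 entries). A C at the start followed by 4 pyrimidines was present in 19 of the 61 (31.1%), against 2.63% of all 33469 promoters in the table. Within 20 bases on each side of the start, on the coding strand, CTTTCC was found in 26.2% of the members' windows and 1.73% of all. The motif CTTTTC was found in 13.1% and 1.44%. The longer CTCTTTC was found in 16.4% and 0.571%. Any of these was present in 29 of 61 windows (47.5%), against 3.47% of all promoters, and on the opposite strand in 2 of 61, against 3.47% of all. The shortest of these motifs can overlap a longer one, and an annotated start may lie some bases from the start used in this tissue. A match describes letters and not a working site.

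Most members were expressed within a narrow band of levels. The mean over the 12 libraries was 200 to 700 TPM for 50 of the 87, above 700 for 7 and below 200 for 30, of which 11 were below 20. The median of each subunit lay in this band, at 279 TPM for the large and 351 for the small subunit. The band held 26 of 52 large and 24 of 35 small subunit members. The members' summed share of a library's TPM was 2.68% to 3.06%. TPM also depends on model length and on which transcripts are summed. Rpl7, with a model of 5151 bases, had a mean of 78.1 TPM but 186 bases (coverage times length) per megabase assigned in the library. Rpl19 had 7.88 TPM from annotated transcripts alone, while its whole locus, shared with AC135443.1, had 273 bases per megabase. Other members were low in both, such as Rps4y2 (6.64 TPM and 2.87 bases per megabase).

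The highest member was Rpl21 on chromosome 12 (12:9996951-9998779 in Rnor_6.0, the build of the files), a large subunit protein. It stood at 1035 to 1109 TPM (median 1064) in saline-sired and 1053 to 1174 (median 1113) in morphine-sired libraries. Rps29, a small zinc-binding protein of the small subunit, stood at 782 to 942 (median 859) and 835 to 928 (median 889). Rplp1, an acidic protein of the stalk that recruits elongation factors, stood at 739 to 915 (median 850) and 849 to 921 (median 863). The groups overlapped for each of these genes, and the lowest value of Rps29 and Rplp1 was in saline-sired 1. Rpl41, which encodes the shortest ribosomal protein, was also among the 4 highest. It is described with the loci whose annotated transcripts changed widely between libraries.

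**Figure D1:**
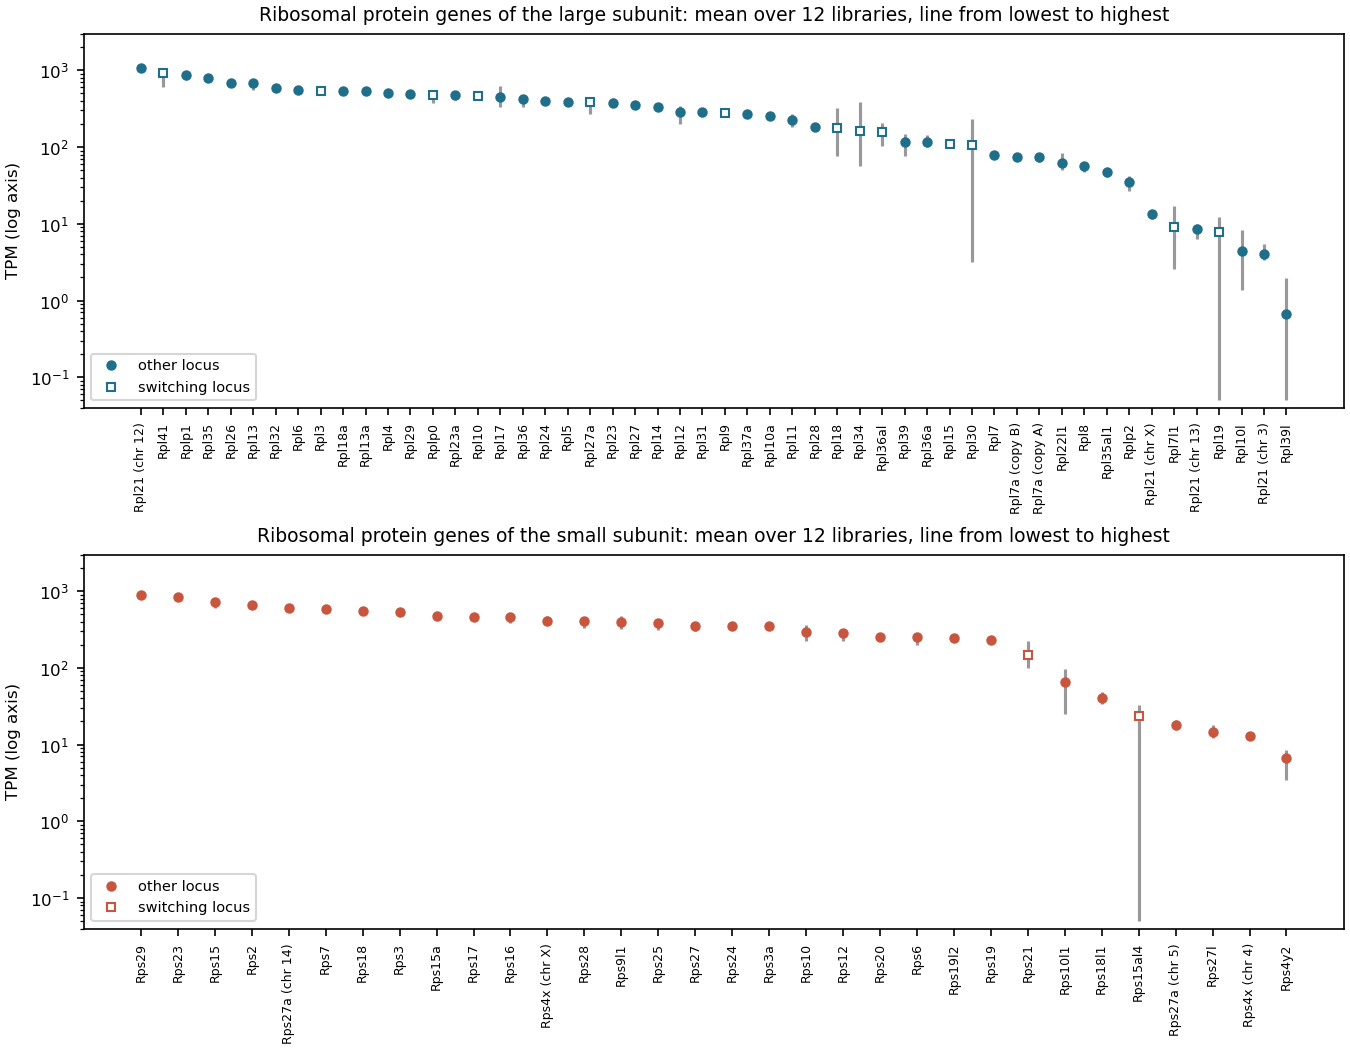
Level of 84 of the 87 ribosomal protein genes in TPM on a log axis, large subunit above and small subunit below. Points are means over 12 libraries, and lines run from the lowest to the highest library (values under 0.05 drawn at 0.05). Open squares are 15 of the loci whose annotated transcripts changed widely between libraries. Most filled points lie between 200 and 700 TPM with lines hidden behind the point, while open squares such as Rpl30 and Rpl34 have long lines.

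Among the members, 10 have only annotated models of 1 exon, the form of a copied mRNA inserted into the genome, and their levels were far lower than those of the spliced genes. Their median was 13.2 TPM (4.10 to 64.9), against 379 TPM for members with several exons. Rpl21 on chromosome 12 was 68.9 to 94.6 times as high as its copy on chromosome X. The spliced Rps27a on chromosome 14, which encodes a fusion of ubiquitin with a small subunit protein, was 30.1 to 38.6 times its copy on chromosome 5. Reads of a spliced gene and a near-identical copy may not be separable, so levels of the copies are uncertain.

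Other pairs had levels so close that they cannot be treated as separate measurements. The 2 loci named Rpl7a, at 3:4867233-4869656 and 3:5459160-5461583, stayed within a ratio of 1.01 to 1.03 in all 12 libraries, at means of 73.8 and 75.1 TPM. Rps19l2 and Rps19 stayed within 1.04 to 1.13, at means of 246 and 229 TPM. Rps10 and its single-exon relative Rps10l1 did not keep a fixed ratio, which ran from 2.70 to 13.5.

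Most paralogs that encode variant ribosomal proteins were low. Rpl39l, a form best known from testis, was listed at 0 in 4 libraries and reached at most 1.99 TPM, with medians of 0.98 in saline-sired and 0.46 among the morphine-sired. Rpl10l, an autosomal relative of the X-linked Rpl10 that is also known from testis, had a median of 5.10 TPM in saline-sired (highest 8.24) and 3.07 in morphine-sired libraries (1.39 to 6.57). Rpl10 was 56.8 to 321 times as high. The ratio was widest where Rpl10l was lowest, in morphine-sired 5. Rps27l stood at 12.0 to 18.0 TPM and Rpl22l1, the paralog of Rpl22, at 50.7 to 83.9. The single-exon locus of Rpl21 on chromosome 3 was the lowest after Rpl39l, at 3.46 to 5.40 (median 4.06) and 3.38 to 4.53 (median 4.06).

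A set of loci stood apart because their annotated transcripts changed widely, in share or level, from library to library. StringTie, the program that made the deposited values, divides reads among overlapping transcript models, and 45 of the 87 members share a locus with models assembled from these libraries. A locus was called switching where the annotated share of its TPM ranged over 50 percentage points or more, or where its annotated TPM ranged 5-fold or more at a mean of at least 5. This held for 17 members, among them Rpl3, Rpl7l1, Rpl9, Rpl10, Rpl15, Rpl18, Rpl19, Rpl27a, Rpl30, Rpl34, Rpl36al, Rpl41, Rplp0, Rps15al4 and Rps21. Each part of the rule held for 13 of them. Which libraries favoured which transcript differed from locus to locus. Whether the RNA itself or the division of reads changed was not tested.

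Rpl34, a large subunit protein, was the plainest case (2:235850334-235852708, minus strand). Its annotated transcripts stood at 324, 351, 328 and 365 TPM in saline-sired 3 and morphine-sired 2, 3 and 6, and at 9.56 to 19.0 in the other 8 libraries. An assembled transcript of 4088 bases, against 354 for the main annotated model, ran the other way, at 18.7 to 20.9 TPM in those 4 libraries and 44.4 to 52.4 in the rest. No library lay between these 2 states, and both states occurred in both groups.

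TPM divides by length, so bases assigned to a long model count for less than the same bases on a short model. The sum of both models of Rpl34 therefore still ranged from 56.8 to 385 TPM, 6.79-fold. Counted instead as bases (coverage times length, per megabase assigned in the library), the whole locus ranged from 84.7 to 101, 1.20-fold. The 4 libraries high in TPM had 89.4 to 98.5 bases per megabase and the other 8 had 84.7 to 101, so in bases the 2 states overlapped.

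**Figure D2:**
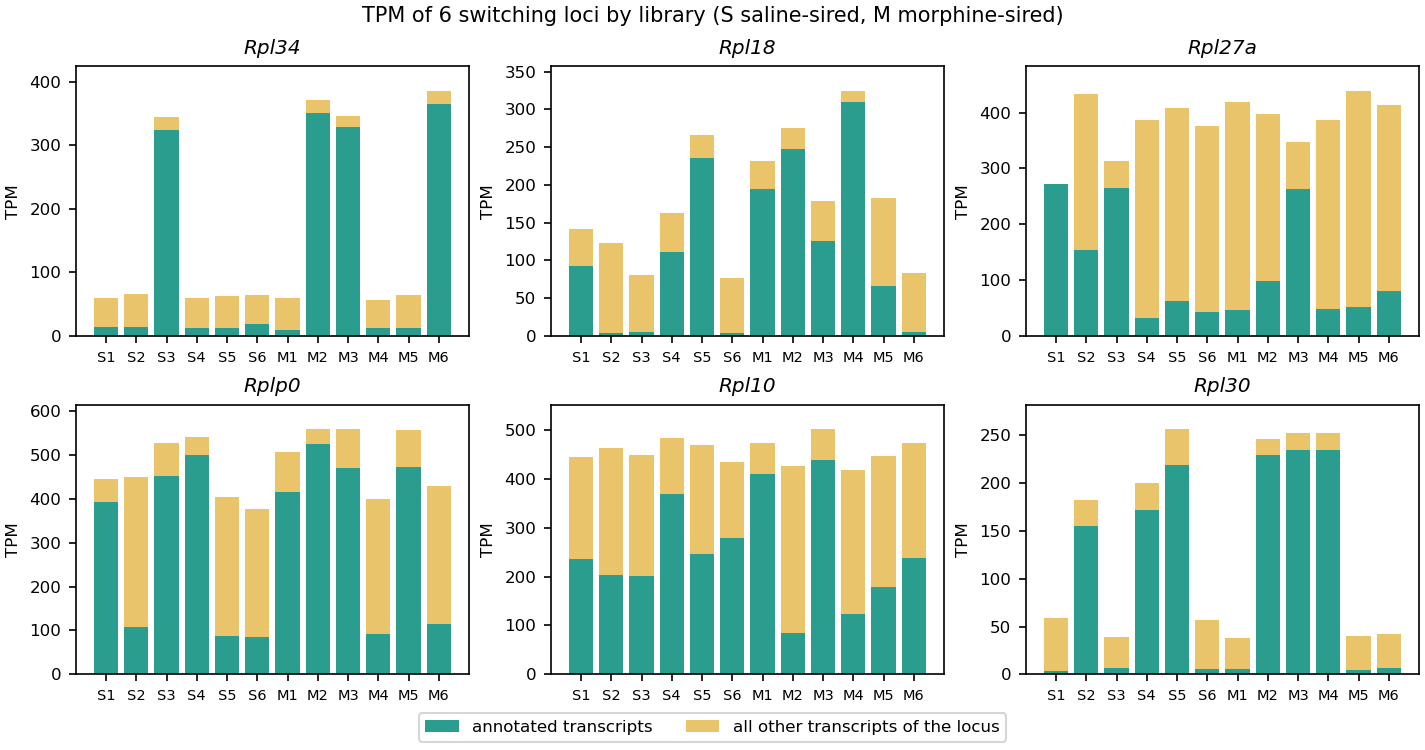
TPM of 6 switching loci in each library (S1 to S6 saline-sired, M1 to M6 morphine-sired), with annotated transcripts in green and all other transcripts of the locus in yellow. Rpl34 has its annotated transcripts high in S3, M2, M3 and M6, while Rpl10 keeps a nearly level total (417 to 501 TPM) although the split changes.

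Rpl30 (7:73213581-73216251), a large subunit protein, showed the same 2-state pattern in another set of libraries. Its annotated transcript stood at 155 to 235 TPM in saline-sired 2, 4 and 5 and morphine-sired 2, 3 and 4, and at 3.15 to 6.82 in the other 6. The locus as a whole ranged 6.70-fold in TPM and 2.14-fold in bases, so some of its spread remained, with saline-sired 5 highest and morphine-sired 1 lowest (35.6 bases per megabase). The locus also holds 2 small RNA names.

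Rpl18, another large subunit protein (1:101701975-101703550), had a gap as well. Its annotated transcript stood at 4.08 to 5.58 TPM in saline-sired 2, 3 and 6 and morphine-sired 6 and spread from 65.7 to 310 over the other 8. The locus ranged from 76.8 to 325 TPM (4.22-fold) but from 98.2 to 123 bases per megabase (1.25-fold). Rps21 ranged 2.29-fold in TPM and 1.71-fold in bases, with saline-sired 4 highest in bases (132).

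In other switching loci the models were closer in length and the total ranged less. Rplp0, the stalk protein on which Rplp1 and Rplp2 assemble, has models of 1093 and 1628 bases. It had 85.2 to 114 TPM of its annotated transcript in saline-sired 2, 5 and 6 and morphine-sired 4 and 6, and 394 to 524 in the other 7. Its total ranged only 1.48-fold, from 377 to 559 TPM. Rpl10 had 84.7 to 438 annotated TPM and 417 to 501 in all, 1.20-fold. Rpl27a had 264 to 272 annotated TPM in saline-sired 1 and 3 and morphine-sired 3 and 32.1 to 154 elsewhere, and a total of 272 to 439. Its low totals were in those same 3 libraries.

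For other loci a single library or a pair stood apart. Rpl36al had 4.25 annotated TPM in saline-sired 2 and 126 to 192 in the other 11. Rpl41 had 156 and 177 in saline-sired 2 and 6 and 669 to 888 elsewhere. In both loci the libraries that stood apart were saline-sired.

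Rpl3, one of the proteins nearest the catalytic centre, had 205 to 535 annotated TPM with a total of 494 to 587. Rpl9 had 105 to 304 with a total of 246 to 306. Rpl15 had 6.67 to 17.4 annotated TPM in 11 libraries and 47.6 in morphine-sired 5, with a total of 101 to 120. These 3 totals ranged no more than 1.25-fold.

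The remaining 3 of the switching loci named here are shared with other named genes, so their gene value holds annotated transcripts only, as it does for Rpl30. Rpl19 stood at 7.38 to 12.2 TPM in 9 libraries and at 0.0530, 0.0129 and 0.0107 in saline-sired 4 and morphine-sired 4 and 5. Its locus kept 239 to 296 bases per megabase, where assembled transcripts held 1.45 to 241 TPM (the 1706-base model) and a model of 80 bases named AC135443.1 held 1205 to 1482 TPM. Rps15al4, a single-exon locus, stood at 0.0230, 2.64 and 6.55 TPM in saline-sired 6, saline-sired 1 and morphine-sired 2 and at 27.5 to 33.1 in the other 9. The whole Rps15al4 locus ranged from 30.1 to 68.3 TPM, 2.27-fold. In bases it ranged 2.37-fold, the widest of the 17 switching loci, so its total changed as well. Rpl7l1, the paralog of Rpl7, stood at 2.54 to 17.2 TPM in a locus of 49.7 to 67.5 TPM.

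Over the 17 switching loci, the highest library exceeded the lowest by a median of 1.60-fold in locus TPM and 1.25-fold in locus bases. Over the 70 other members the same medians were 1.24-fold and 1.25-fold. In bases, 14 of the 17 ranged less than 1.5-fold, against 8 of 17 in TPM. Counted in bases, the switching loci had the same median spread as the other members. In 5 of the 17, a transcript of the same locus was among the 2 transcripts with the most negative Pearson correlation to the annotated level (of 12103 compared, over 12 libraries). This is a description, since the same reads are divided between such models.

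**Figure D3:**
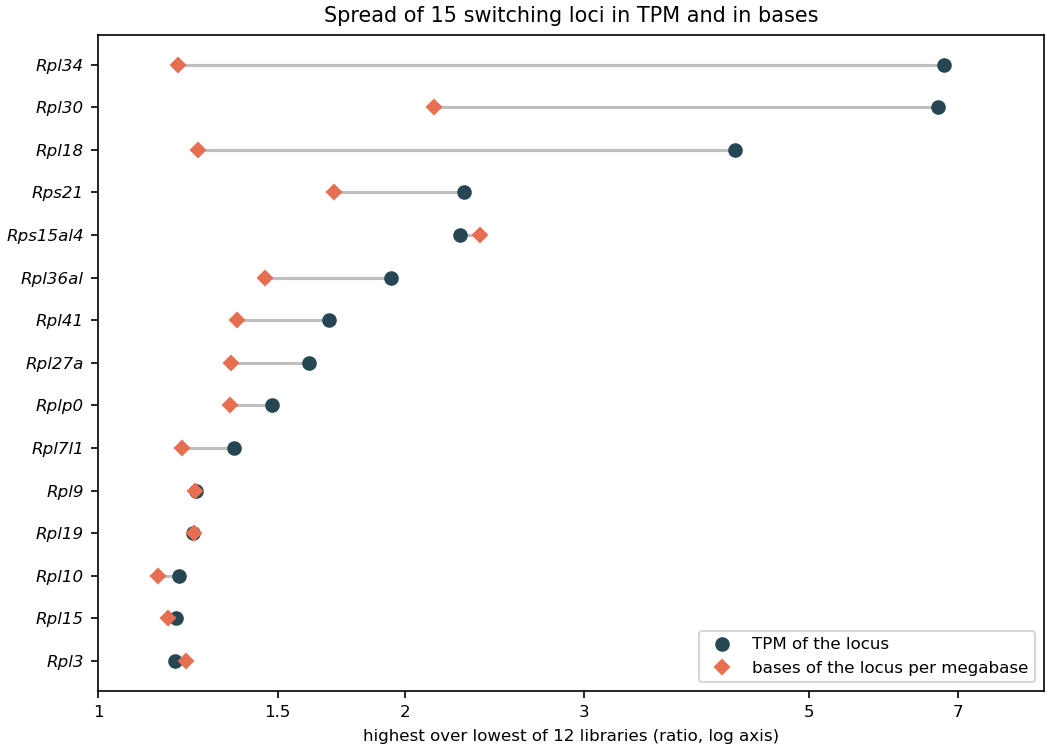
Highest over lowest of 12 libraries for 15 of the 17 switching loci, on a log axis; circles are the TPM of the whole locus and diamonds its bases per megabase of the library. Circles reach 6.79 for Rpl34, 6.70 for Rpl30 and 4.22 for Rpl18, and the diamonds of Rpl34 and Rpl18 lie at 1.20 and 1.25.

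Outside these loci, 6 members had a coefficient of variation above 20%, among them Rpl17, Rps10l1, Rpl10l, Rps4y2 and Rpl39l. Rpl17 ranged from 336 to 626 TPM, 1.89-fold in bases. Among members at 100 TPM or more the median coefficient of variation was 5.85%, against 7.72% for all genes at that level.

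No ribosomal protein gene passed the test between the sire groups. With limma on log2(TPM + 1), 0 of 87 members had an adjusted p under 0.05 (smallest 0.9998), as did 0% of the 24540 genes tested. At an unadjusted p under 0.05 there was 1 member, Rps4y2, where the background was 3.22%, and limma-voom on estimated reads also gave 0 members at an adjusted p under 0.05 (0% of all genes) and 3.04% of all genes at an unadjusted p under 0.05. In no member did the groups avoid overlap, where the background was 0.0896%.

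The intervals show how large a difference these libraries leave possible. The 95% interval had a median half-width of 0.13 on the log2 scale over the members, against 0.30 over all genes. Among genes at 100 TPM or more it was 0.11 for the 66 members and 0.14 for all 1796. It lay within -0.5 to 0.5 for 73 of the 87 members, where the background was 60.6%, and within -0.25 to 0.25 for 56, where the background was 25.4%.

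Rps4y2, a single-exon locus on chromosome 4 (4:182745448-182746381) with the name of a small subunit protein, stood at 6.79 to 8.45 TPM (median 7.89) in saline-sired and 3.45 to 7.75 (median 5.28) among the morphine-sired. The difference was -0.47 ± 0.15 (SE) with an unadjusted p of 0.00811 and an adjusted p of 0.9998 in limma. Morphine-sired 3 and 4, at 7.75 and 7.00, lay within the saline-sired range. Its related gene Rps4x on the X chromosome ranged from 360 to 481 TPM and differed by -0.04 ± 0.07.

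Rpl41, the next in order of p, stood at 614 to 990 TPM (median 927) in saline-sired and 936 to 1036 (median 997) among the morphine-sired, a difference of 0.21 ± 0.10. Its lowest values were in saline-sired 6 and 1, and the difference was 0.11 without saline-sired 6 and 0.08 without saline-sired 1, saline-sired 6 and morphine-sired 1. As bases of the whole locus it was 0.12 ± 0.07. Rpl12, of the base of the stalk, stood at 198 to 319 TPM (median 282) and 274 to 340 (median 305), a difference of 0.22 ± 0.11. Here too saline-sired 1 and 6 were lowest, at 198 and 218, and the other 10 libraries lay between 274 and 340. The difference of Rpl12 was 0.14 without saline-sired 1 and 0.05 without the 3 libraries low in cholinergic markers.

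Rps27a on chromosome 5 stood at 17.1 to 21.2 TPM (median 18.4) in saline-sired and 15.4 to 18.7 (median 16.8) among the morphine-sired, a difference of -0.13 ± 0.07. Rps9l1, of the small subunit, stood at 322 to 412 (median 387) and 364 to 481 (median 415), a difference of 0.15 ± 0.08 (0.05 without those 3 libraries). Rpl11, a large subunit protein also known for binding the p53 regulator Mdm2, stood at 182 to 224 (median 217) and 192 to 273 (median 232), a difference of 0.14 ± 0.08. In bases the Rpl11 locus ranged from 96.8 to 108 per megabase over the 12 libraries. Rpl7l1 differed by -0.67 ± 0.39, with medians of 11.3 and 4.80 TPM, and Rpl18 by 0.59 ± 0.35 (0.39 without the 3 libraries), with medians of 132 and 207.

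The members with the widest differences were switching loci. Rps15al4 differed by 0.96 ± 0.85 (-0.43 without saline-sired 1, saline-sired 6 and morphine-sired 1), Rpl34 by 0.83 ± 0.63 and Rpl19 by -0.66 ± 0.84, each with an interval that included 0. Tested as bases of the whole locus, an alternative added after the data were seen, Rpl34 differed by 0.03 ± 0.05, Rpl18 by 0.06 ± 0.05, Rpl7l1 by -0.01 ± 0.05 and Rpl19 by 0.06 ± 0.06. Over the 17 switching loci the size of the difference reached 0.96 in TPM and 0.26 in bases, the latter for Rpl30 (-0.26 ± 0.17). For Rps15al4, Rpl19, Rpl7l1 and Rpl30 the TPM value held annotated transcripts only, while bases covered the whole locus. For these loci TPM and bases therefore also differ in the transcripts summed. In the test of bases 0% of all loci passed, and the adjusted p of the switching loci in limma was 0.999.

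**Figure D4:**
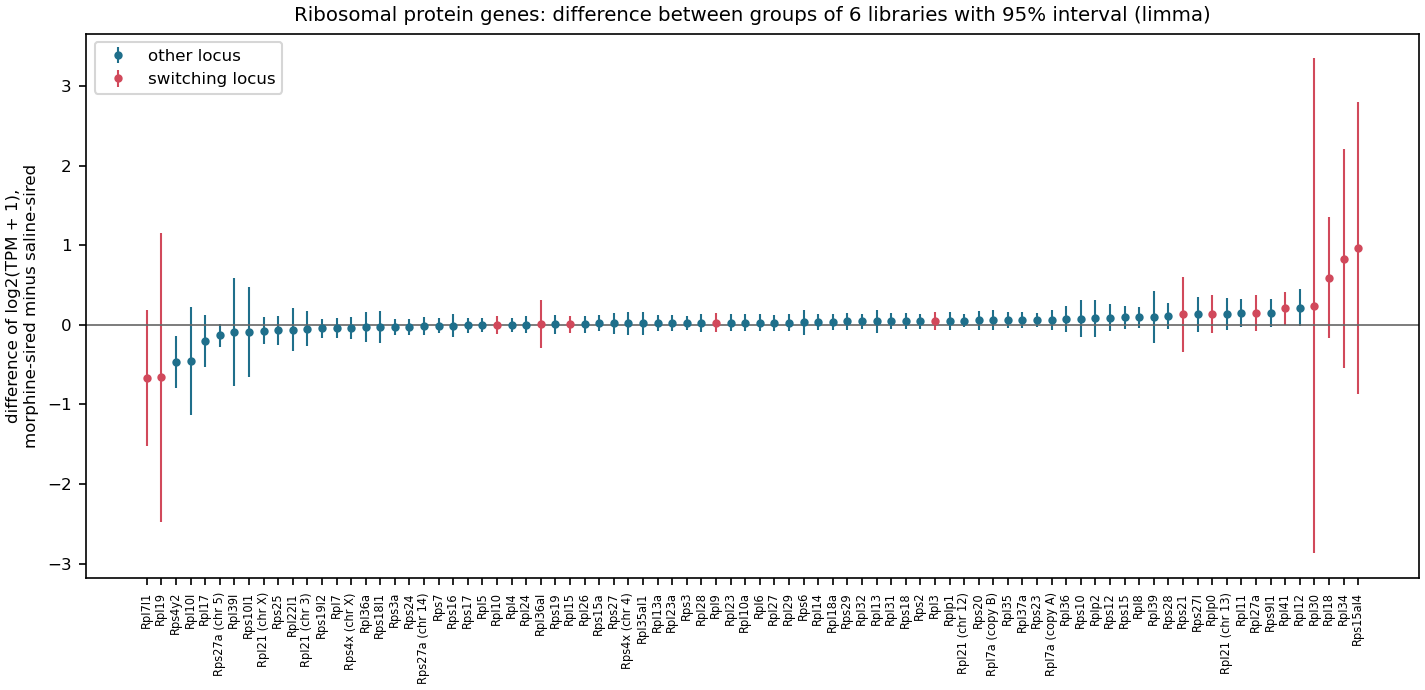
Morphine-sired minus saline-sired difference, in log2(TPM + 1), for 84 of the 87 ribosomal protein genes in order, with the 95% interval from limma on 6 against 6 libraries; switching loci are red. The widest intervals belong to switching loci such as Rpl30 and Rps15al4, and 72 of the 84 intervals drawn lie within -0.5 to 0.5.

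Of single transcripts in the members' loci, 209 of 225 were tested and 0 had an adjusted p under 0.05 (background 0.00198%, 1 of 50419 transcripts). At an unadjusted p under 0.05 there were 6, where the background was 3.77%. They included the annotated Rpl11 model of 537 bases (0.42 ± 0.18) and the assembled Rpl30 model of 2326 bases (-0.63 ± 0.27).

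The sign of the differences leaned toward higher values among the morphine-sired, by a small amount. The mean was higher among the morphine-sired for 60 of 87 members, where the background was 49.2%, with a median difference of 0.03 over the members and -0.00 over all genes. By subunit it was higher for 39 of 52 large and 21 of 35 small subunit members. It was higher for 14 of the 17 switching loci (median 0.13) and 46 of the 70 others (median 0.03). As the members move together, their number is not a number of independent observations.

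This lean was not present without the 3 libraries low in cholinergic markers. Of these, saline-sired 1 and 6 were also the lowest in the members' own median deviation, described below (-0.10 and -0.07). Morphine-sired 1 stood at -0.01. Leaving them out therefore lowers the difference whatever their markers, and the part of the markers was not tested. Leaving out saline-sired 1, saline-sired 6 and morphine-sired 1, an alternative added after the data were seen, 44 of 87 members had a higher mean among the morphine-sired, where 53.0% of all genes did, and the median was 0.002. Leaving out 1 library at a time gave 51 to 67 members and a median of 0.016 to 0.045. The median fell to 0.016 without saline-sired 1 and 0.018 without morphine-sired 5 and rose to 0.045 without saline-sired 2. After quantile normalization 53 members were higher (background 49.5%), with a median of 0.007. As bases of the whole locus 62 members were higher (background 50.6%), with a median of 0.033. In limma-voom 62 were higher (median 0.029), and after median ratio scaling of the libraries 61 (median 0.031). On annotated transcripts alone 56 were higher (median 0.028). The lean therefore shrank under some processing settings and not under others.

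Library by library, the members that do not switch moved together and both subunits mostly alike. Their median deviation of log2(TPM + 1) from the gene's mean was lowest in saline-sired 1 (-0.10) and 6 (-0.07). It was highest in saline-sired 2 (0.09), morphine-sired 6 (0.07), saline-sired 5 (0.05) and morphine-sired 5 (0.05). In saline-sired 1 the large subunit stood at -0.12 and the small at -0.07, and in saline-sired 2 both stood at 0.09. Morphine-sired 4 had -0.02 for the large and -0.06 for the small subunit, and morphine-sired 5 had 0.03 and 0.07. The groups overlapped, with -0.01 ± 0.07 in saline-sired and 0.01 ± 0.04 among the morphine-sired (SD, n = 6). The means of the groups differed by less than the SD within either. Genes in general shifted by library, with a median ratio to the gene's geometric mean of 0.961 in morphine-sired 2 to 1.05 in saline-sired 1. The members' deviations were not adjusted for this shift.

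**Figure D5:**
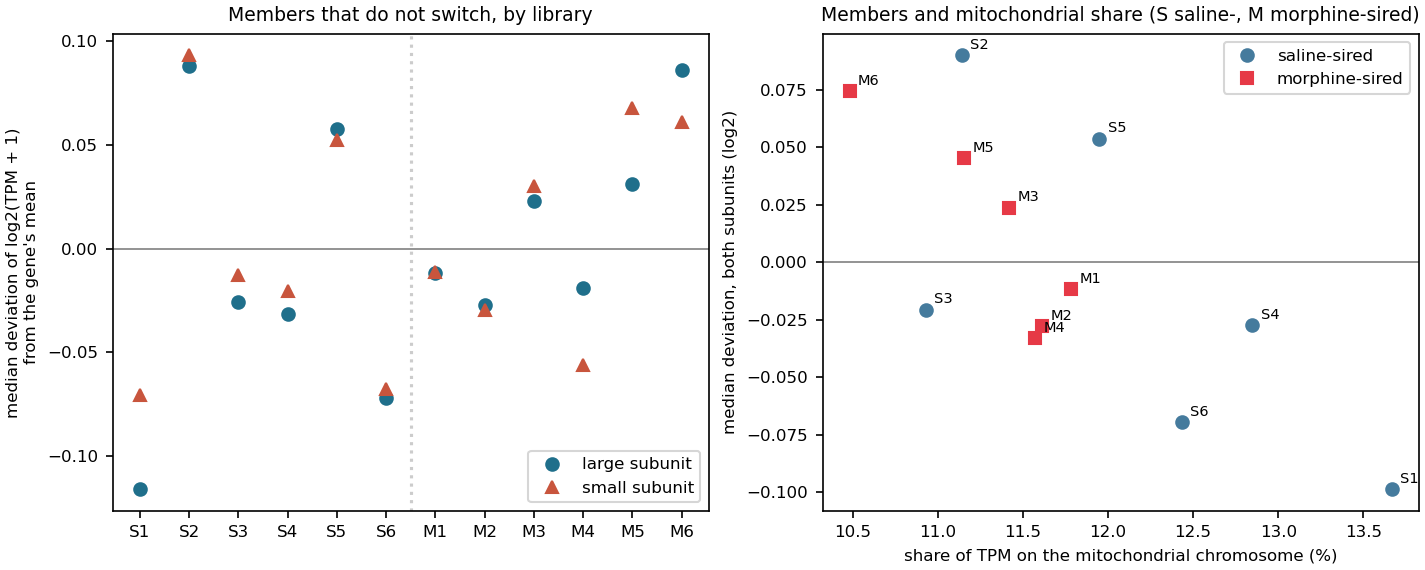
Left, median deviation of log2(TPM + 1) from the gene's own mean over members that do not switch, by library (S saline-sired, M morphine-sired), for large (circles) and small subunit (triangles); right, the same for both subunits against the percentage of TPM on the mitochondrial chromosome. Saline-sired 1 is lowest on the vertical axis and has the highest mitochondrial share (13.7%).

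Other measures also differed between the libraries, and their part in the result was not tested. The mitochondrial chromosome held 13.7% of TPM in saline-sired 1 and 10.5% in morphine-sired 6. All 13 of its protein genes had a lower mean among the morphine-sired (median -0.08, 0 passed the test). The summed serotonergic markers were 9.08 to 15.0 TPM in saline-sired 1, saline-sired 6 and morphine-sired 1. No gap set these apart, with morphine-sired 6 at 16.9, 5 at 17.3 and 4 at 21.9, and values up to 998 elsewhere. Morphine-sired 5 and 6 were low in these markers but among the libraries highest in the members' median deviation (0.05 and 0.07). With TPM rescaled without mitochondrial genes, 55 of 87 members were higher (background 44.9%), with a median of 0.014 (all genes -0.01).

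Markers of other cell types leaned in both directions, and 0 of them passed the test. Choroid plexus markers had a higher mean among the morphine-sired for 6 of 6 (median difference 0.63, 3 at an unadjusted p under 0.05). Blood markers were higher for 4 of 4 (median 0.36) and ependymal markers for 4 of 4 (median 0.12). Summed microglial markers ranged from 236 to 330 TPM, with a higher mean among the morphine-sired for 7 of 8 (median 0.16) and 4 at an unadjusted p under 0.05. Oligodendrocyte markers, lower for 8 of 8 (median -0.14), ranged from 10163 to 20768 TPM. Neuronal markers, lower for 6 of 7 (median -0.10), ranged from 4498 to 8796, and serotonergic markers were lower for 4 of 4 (median -1.24). Their part in the members' levels was not tested.

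Ribosome components outside the name pattern had levels like those of the members. Rpsa stood at 658 ± 53.3 TPM in saline-sired and 683 ± 25.7 among the morphine-sired, Fau at 755 ± 70.3 and 779 ± 16.2, and Rack1 at 349 ± 15.0 and 362 ± 11.5 (SD, n = 6 each). Each of these 3 had a higher mean among the morphine-sired, and 0 passed. Of the 4 such components tested, 3 were higher and 1 was lower. Their summed TPM was lowest in saline-sired 1 (1725) and saline-sired 6 (1907), against 1974 to 2195 in the other libraries. The direction of these 3 genes without the libraries low in cholinergic markers is not given here.

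Genes that act on ribosomes or share the TOP motif held no gene past the test either. Of 18 elongation factors and other TOP mRNAs, 7 were higher, with a median of -0.02, and 0 passed. Eef2, which moves the ribosome along the mRNA, stood at 1233 ± 57.2 and 1303 ± 33.1 TPM (difference 0.08 ± 0.04). Eef1a1, which brings aminoacyl-tRNA, ranged from 719 to 2533 TPM. Of 31 initiation factors 15 were higher (median -0.00).

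Of 16 genes of the mTORC1 pathway 5 were higher (median -0.02). Tsc1, which restrains mTORC1, stood at 27.1 ± 7.02 and 19.7 ± 1.26 TPM, a difference of -0.40 ± 0.14 that did not pass the adjusted test. Of 44 ribosome biogenesis genes 22 were higher. Nob1, which trims small subunit rRNA, stood at 47.4 ± 4.13 and 53.9 ± 5.20, and Fbl, the rRNA methyltransferase fibrillarin, at 39.1 ± 2.33 and 42.9 ± 2.77.

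Mitochondrial ribosomal proteins, encoded in the nucleus, were higher for 34 of 75 (median -0.00), with 0 passed. Mrps18b stood at 41.0 ± 3.73 and 34.6 ± 3.01 TPM (difference -0.24 ± 0.07) and Mrpl58 at 55.2 ± 2.54 and 61.5 ± 4.23 (0.15 ± 0.05). These differences went in opposite directions and neither passed. No difference between these lists and the members was tested.

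The genes outside the members whose levels followed the members' median most closely over the 12 libraries were LOC100911847 (Pearson r 0.94), Grcc10 (0.93) and LOC100911713 (0.91), given as a description. LOC100911847 stood at 836 to 970 TPM, lowest in saline-sired 6 and highest in morphine-sired 6. Grcc10 stood at 88.5 to 119, lowest in saline-sired 6 and highest in saline-sired 2.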

How the data were processed

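Per the file headers, the authors made the 12 transcript files with StringTie 1.3.6, estimating expression on a merged annotation. Per the submitters' processing notes, the build was Rnor_6.0 and the tools included HISAT2 2.2.0 (alignment tool), StringTie 2.1.2 (another version than in the headers), Trimmomatic 0.39 and SAMtools 1.11. Pairing and strand of the reads are not given in the sources used here. The deposited values are coverage, FPKM and TPM for 76232 transcripts (41063 annotated, 35169 assembled). From the authors' deposited table only the gene names were used, and its 12 value columns were not used.

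TPM was summed over the annotated transcripts of each symbol in a locus, plus assembled transcripts where the locus has 1 symbol (10 members lie in loci of several). This gave 41596 genes, of which 24540 had a mean of at least 0.5 TPM. The test was limma (version 3.58.1, R version 4.3.3, with trend, two-sided, Benjamini-Hochberg adjustment over all genes) on log2(TPM + 1), which understates changes of low genes. The bases assigned to transcripts were 4.10 to 5.63 gigabases per library. Estimated reads used a step of 135 bases inferred from the values. Python 3.11.15 did the rest. Simulated data with known changes were used to check the test. They held independent normal noise for each gene, so they do not cover loci that switch or members that move together.

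The members, gene lists and naming rules were chosen with earlier results of these data known. Values were given for the 8 members with the smallest p, the 4 highest, the 4 lowest, every switching locus, Rpl12 and Rpl34, and up to 3 genes per other list; Rpl17, the copy pairs and promoter examples were added after values were seen. Some members and 1 other ribosome component are not reported here by name. Alternatives covered annotated transcripts alone, pseudocounts, filters, scaling, voom and leaving out each library.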

Additional observations from a re-analysis of the deposited data

Results flagged for a closer look

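Within the 2 groups of 6 libraries of each of 26 named members, 3 of 52 groups held a library whose gap to the nearest other exceeded Dixon's 95% critical value, and chance alone marks about 1 group in 20. Rpl34 stood at 344 TPM in saline-sired 3, with the other saline-sired libraries at 59.1 to 65.3. Rpl19 stood at 0.0530 TPM in saline-sired 4, with the others at 9.84 to 12.1. Rps15al4 stood at 6.55 TPM in morphine-sired 2, with the others at 27.5 to 33.1. All 3 are switching loci. Such loci were named because their annotated values ranged widely between libraries, so the rate of 1 in 20 does not hold for them. In bases per megabase the whole locus lay within the range of the group's other libraries for Rpl34 and Rpl19, and just below it for Rps15al4 (11.3 against 11.7 to 14.2).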

How the results depend on the processing

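Under all alternatives run, 0 ribosomal protein genes passed an adjusted p of 0.05. Over all genes, 1 passed in limma when saline-sired 4, saline-sired 6 or the 3 libraries low in cholinergic markers were left out, so leaving out 1 library gave 0 to 1. The members with a higher mean among the morphine-sired numbered 44 to 67 and their median was 0.002 to 0.045 over all alternatives. The switching loci numbered 23 at a range of 25 percentage points, and the members 87 on annotated transcripts alone.

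Of 26 named members, 14 changed sign under some alternative, and 0 were called under any. The cause was not tested. As bases of the whole locus the log2 differences were 0.0084 for Rpl10, -0.0030 for Rpl15, 0.062 for Rpl19, -0.26 for Rpl30, -0.063 for Rpl36al, -0.0099 for Rpl9 and -0.066 for Rps21. In limma-voom they were 0.0070 for Rpl10, -0.0031 for Rpl15, -0.065 for Rpl36al, -0.010 for Rpl9 and -0.071 for Rps21. Without the 3 libraries low in cholinergic markers they were -0.014 for Rplp1, -0.0092 for Rps29, -0.0070 for Rpl15, -0.54 for Rpl30, -0.43 for Rps15al4 and -0.17 for Rps21. On annotated transcripts alone they were -0.33 for Rpl27a and -0.040 for Rpl3. Without mitochondrial genes they were -0.0070 for Rpl15 and -0.0087 for Rpl36al, and after quantile normalization -0.0057 for Rpl36al and -0.00049 for Rpl9. With Rfam names not counted as symbols Rpl30 was at -0.042. Leaving out 1 library in turn gave -0.29 to 0.024 for Rpl39l, -0.090 to 0.014 for Rpl21 on chromosome 3, -0.031 to 0.021 for Rpl10 and -0.024 to 0.027 for Rpl15. It gave -0.36 to 0.81 for Rpl30, -0.11 to 0.081 for Rpl36al and -0.0025 to 0.061 for Rpl9.

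No paired analysis was possible because the labels tie no library of one group to a library of the other; the numbers 1 to 6 follow accession order and only name libraries. Rpl39l, the lowest member, was listed at 0 in 4 libraries of 4.10 to 5.58 gigabases, nearly the whole range of depth, so a low depth was not common to them.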
